A study of Mus musculus with 2 samples.

Results

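Chemokines are small secreted proteins that guide leukocytes through their receptors, and a group of 8 genes that draw T cells and natural killer (NK) cells into tissue was followed here through the leukocytes of a mouse lung tumor. They are the ligands Cxcl9, Cxcl10, Cxcl16, Ccl3, Ccl4 and Ccl5 and the receptors Cxcr3 and Cxcr6, chosen by symbol from the 27998 genes measured, and each of the 8 had a row in both libraries. Cxcl9 and Cxcl10 bind Cxcr3, and both are classic targets of interferon signalling in macrophages. Cxcl16 is made as a membrane protein that the proteases Adam10 and Adam17 can shed, and its receptor is Cxcr6. Ccl3, Ccl4 and Ccl5 are CC chemokines that act on T cells, NK cells and monocytes, and Ccl3 and Ccl5 bind the receptor Ccr1. Cxcr3 marks activated and effector lymphocytes, and Cxcr6 is known on T cells that reside in tissue or have met antigen repeatedly.

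The cells were CD45+ leukocytes from Lewis lung carcinoma (LLC) tumors, a syngeneic line grown under the skin of C57/BL6 mice that were 8 weeks old at implantation and 10 weeks old, on day 14, at harvest. Going by the titles, the library titled wt came from miR-21fl/fl mice, in which the gene of the microRNA miR-21 is flanked by loxP sites. The library titled cko then came from LysMCre;miR-21fl/fl mice, so the floxed allele was shared by both. LysM, the promoter that drives Cre here, is active in macrophages and granulocytes and is not known for activity in lymphocytes. Cells of 3 mice were pooled per library and each genotype had 1 droplet library (10x Genomics 3′ chemistry), so no difference below has a replicate check, no p-value is given, and intervals cover counting error only.

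Title and source description give opposite genotypes to the libraries, and the growth protocol names a macrophage sort where the design text names CD45+ cells. The groups are therefore named by title, as the libraries labelled wt and cko. Lyz2, the gene that carries Cre in LysMCre mice, measured 19434 CPM (counts per 1000000, the UMIs of the gene for that many UMIs of the class) in macrophage/monocyte cells of the library labelled wt and 9239 CPM in that labelled cko, and 5623 and 2917 CPM in neutrophils. Lyz2 was thus lower in both classes of the library whose title assigns it to LysMCre mice, and the genotype was not tested. Mir21a itself was not analysed here. After filtering, the libraries held 2445 and 2704 cells with a median of 8373 and 8273.5 unique molecular identifiers (UMIs, each counting 1 captured transcript) per cell, and 5 barcodes occurred in both.

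Cells were sorted into classes by UMIs of marker genes, none of them a chemokine of the group. Each pair of values below gives the library labelled wt first. By this scheme 2033 and 2194 cells were macrophage/monocyte, 73 and 105 were CD8 T, 62 and 68 were T cells without Cd8 transcripts (CD8-negative T), 50 and 53 were NK, 22 and 55 were neutrophils, 15 and 39 were mature dendritic cells (DCs, by Ccr7 and Fscn1), 22 and 24 were XCR1 DCs, and 16 and 19 were plasmacytoid DCs. B cells, CD209a DCs and cells with tumor genes had at most 4 cells each, and 58 and 57 cells carried lymphoid and myeloid markers together and were set aside as mixed. Independent markers supported the names: all 5 T, NK, neutrophil and plasmacytoid DC markers were at least 2-fold higher in their class in both libraries, 4 of 5 macrophage markers were, with Cd14 at 1.40 and 0.715 times the other cells, and 5 and 4 of 5 DC markers were. T markers were close to absent from the macrophage/monocyte class, where Cd3e measured 1.25 and 1.45 CPM against 462 and 526 CPM in T and NK cells together.

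The ligands divided by source. Macrophage/monocyte cells held 92.0% of all Cxcl9 UMIs in the library labelled wt and 90.5% in that labelled cko. Their share was 94.3% and 92.6% for Cxcl10, and 93.0% and 91.0% for Cxcl16. Ccl3 and Ccl4 came from both arms: macrophage/monocyte cells held 65.1% and 72.0% of Ccl3 UMIs, and 63.3% and 56.8% of Ccl4 UMIs, with 11.4% and 21.6% of Ccl3 and 13.4% and 33.8% of Ccl4 in T and NK cells. Ccl5 was mainly a lymphocyte transcript, with 50.7% and 51.9% of UMIs in T and NK cells, 22.7% and 20.8% in macrophage/monocyte cells and 17.7% and 20.6% in mature DCs, which were only 15 and 39 cells. Cxcr6 was the most lymphoid of the group, with 84.6% and 87.2% of UMIs in T and NK cells, while 47.6% and 45.7% of Cxcr3 UMIs lay there.

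**Figure D1:**
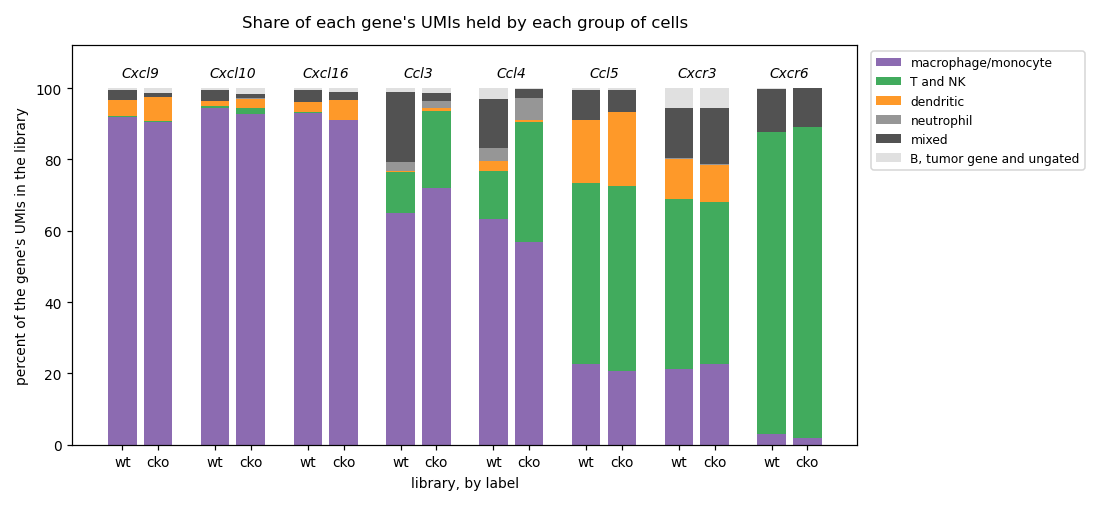
Stacked bars give the percent of each gene's UMIs that lay in each group of gated cells (vertical axis, percent of the gene's UMIs in the library), with 1 bar per library. Macrophage/monocyte cells hold over 90% of Cxcl9, Cxcl10 and Cxcl16 in both libraries, and T and NK cells hold 84.6% and 87.2% of Cxcr6.

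In macrophage/monocyte cells, 1 of the 8 members (Ccl3) was past 1.5-fold, where 6.99% of all 11567 genes with at least 20 UMIs were past it in either direction. The members' median log2 ratio of CPM (cko over wt, the scale of every ratio below) was -0.09, against 0.04 over all those genes. Ccl3 lay near the threshold. It measured 0.57 under TMM scaling and under DESeq2 size factors, 0.54 as a mean over cells and 0.43 with mixed cells added, all under 1.5-fold. With the top cell of each gene left out of both libraries 2 were past it, Ccl3 and Ccl5 (-0.82), since a single cell of the library labelled cko held 43.3% of the Ccl5 UMIs of the class. In T and NK cells together 4 of the 7 members with at least 20 UMIs were past 1.5-fold, against 14.9% of all genes there. Cxcl10, Ccl3 and Ccl4 were higher in the library labelled cko and Cxcl16 was lower, but the last had 18 and 12 UMIs and an interval that included 0 (-2.15 to 0.17), and with at least 50 UMIs asked for the count was 3. Among CD8 T cells 5 of 6 were past it, against 17.7% of all genes. The corresponding counts were 2 of 6 in CD8-negative T cells, against 21.3%, and 4 of 5 in NK cells, against 24.2%. Smaller classes crossed the threshold more often for any gene: 3 of 4 members did in mature DCs, against 48.5%, and 1 of 2 in neutrophils, against 37.8%. The members were chosen with earlier results of these data known, so all these counts are a description and test nothing.

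**Figure D2:**
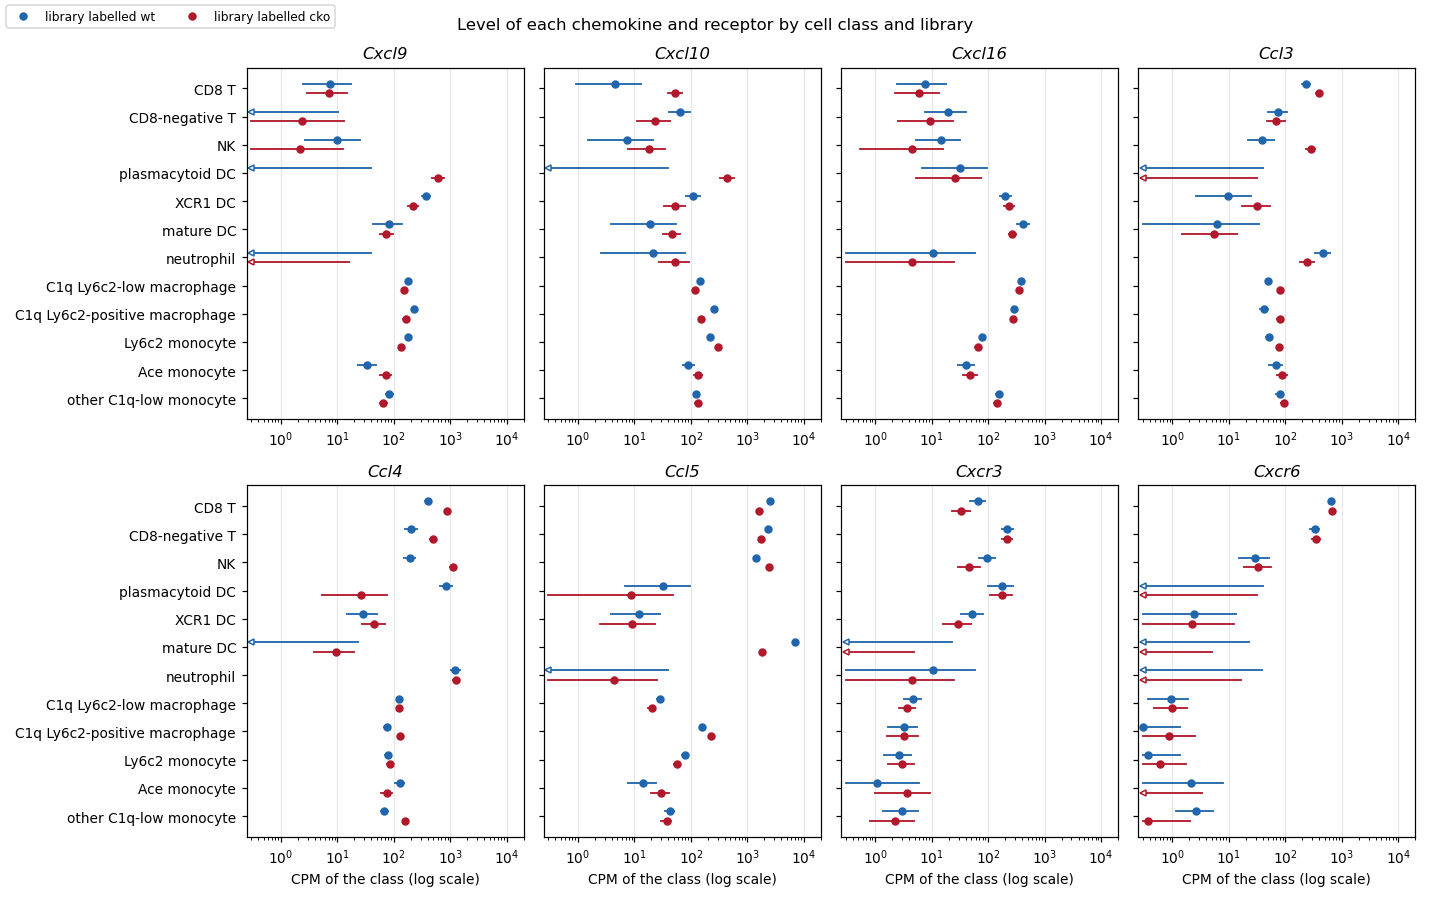
Points give the CPM of each gene (horizontal axis, log scale) summed over the cells of each class (vertical axis), blue for the library labelled wt and red for that labelled cko, with exact Poisson 95% intervals for counting error as bars. Open triangles at the left edge mark classes with 0 UMIs, and values under 0.3 CPM are drawn at that edge. Cxcl16 follows the C1q classes, Ccl5 the lymphocytes and mature DCs, and Cxcr6 the T cells.

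Cxcl9 and Cxcl10, the Cxcr3 ligands, lie next to each other on chromosome 5. In mm10 coordinates with GENCODE M21 annotation, Cxcl9 (ENSMUSG00000029417) spans chr5:92321347-92328079 and Cxcl10 (ENSMUSG00000034855) chr5:92346638-92348889, both on the minus strand and 18558 bases apart. The windows from 250 bases before to 50 bases after the start (RefSeq, GRCm38.p6, strand of the gene, chr5:92328030-92328329 for Cxcl9 and chr5:92348840-92349139 for Cxcl10) are shown because both genes are read together below, with matches to the motifs searched in capitals.
Cxcl9: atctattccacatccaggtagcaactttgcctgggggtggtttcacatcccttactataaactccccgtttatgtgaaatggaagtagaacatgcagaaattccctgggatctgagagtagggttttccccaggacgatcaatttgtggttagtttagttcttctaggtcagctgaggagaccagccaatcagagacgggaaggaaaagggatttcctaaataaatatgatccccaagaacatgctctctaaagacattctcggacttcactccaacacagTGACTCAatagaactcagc
Cxcl10: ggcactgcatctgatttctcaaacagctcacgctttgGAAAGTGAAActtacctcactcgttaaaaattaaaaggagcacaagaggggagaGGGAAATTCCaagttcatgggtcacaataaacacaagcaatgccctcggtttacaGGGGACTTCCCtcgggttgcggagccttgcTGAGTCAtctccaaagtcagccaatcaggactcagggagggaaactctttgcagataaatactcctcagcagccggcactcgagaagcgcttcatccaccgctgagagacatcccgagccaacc
The 4 motifs were the interferon-stimulated response element (GAAA, any 2 bases, GAAA), the interferon-gamma activated site, GAS (TTCNNNGAA), the NF-kB consensus and the AP-1 site (TGANTCA), searched on both strands and chosen after the sequences had been seen. The Cxcl10 window held an interferon-stimulated response element (GAAAGTGAAA, from -213 to -204 relative to the start), NF-kB matches at -159 to -150 and, overlapping each other, at -104 to -94, and an AP-1 site (TGAGTCA, from -74 to -68). The Cxcl9 window held only an AP-1 match (TGACTCA), from 31 to 37 after the start. Variants of the motifs were not searched, so this does not mean that the window lacks interferon or NF-kB elements. Over all 32851 promoter windows, 3.44% held the response element, 8.30% GAS, 8.46% the NF-kB consensus and 7.81% the AP-1 site. The table had windows for 5 of the 8 members, and those of Ccl3, Cxcr3 and Cxcr6 held none of the 4, which says only that these letters were not there.

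Cxcl9 was somewhat lower in macrophage/monocyte cells of the library labelled cko, with 3508 UMIs (169 CPM) against 2979 UMIs (135 CPM), a log2 ratio of -0.33 (95% interval -0.40 to -0.26). The share of cells with at least 1 UMI, after every cell was thinned to 3000 UMIs, was 12.8% and 11.3% (20.4% and 18.05% before thinning), with exact Clopper-Pearson 95% intervals of 11.4 to 14.3% and 10.0 to 12.7% that overlap. In the T and NK class, 1.62% and 2.21% of thinned cells had a UMI. Transcripts were concentrated in few cells: the 203 cells with most Cxcl9 of the 2033 held 90.8% of the UMIs, and the top 219 of 2194 held 93.5%.

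Within the macrophage/monocyte cells, Cxcl9 was highest in C1q macrophages that also expressed Ly6c2, a gene of classical monocytes, although counting intervals overlapped with the next class in the library labelled cko. They had 224 and 162 CPM (log2 ratio -0.47, -0.62 to -0.31). C1q macrophages low in Ly6c2 had 182 and 152 CPM (-0.26, -0.37 to -0.15) and Ly6c2 monocytes 181 and 133 CPM (-0.44, -0.59 to -0.30). The last pair did not differ beyond counting error in the library labelled wt. Monocytes with Ace, a marker of the patrolling kind, went the other way at 33.9 and 72.7 CPM, but 1 cell held 48 of the 80 UMIs in the library labelled cko, and without the top cell of each library the log2 ratio was 0.21. Other C1q-low monocytes had 252 and 175 UMIs (84.0 and 65.4 CPM, -0.36, -0.65 to -0.08), but the ratio was 0.08 (-0.38 to 0.54) with every cell at equal depth, so no direction is read. XCR1 DCs, the cross-presenting type, had 377 CPM from 10 of 22 cells in the library labelled wt and 218 CPM from 8 of 24 cells in that labelled cko (157 and 96 UMIs, log2 ratio -0.79, -1.17 to -0.42). A single cell held 66 of the 157 UMIs and another, with 443 C1q UMIs, 37 of the 96. Without these cells the levels were 226 and 143 CPM (-0.66, -1.16 to -0.17), near those of the C1q Ly6c2-positive macrophages. Free macrophage RNA would give 30.4 and 49.2 of those UMIs. Mature DCs had 13 and 55 UMIs (81.8 and 74.2 CPM, -0.14, -1.03 to 0.86), but single cells held 10 and 30 of them. The latter cell had 296 C1q UMIs. Without the top cells 3 and 25 UMIs remained (19.9 and 34.7 CPM, 0.80, -0.91 to 3.18), so no direction is read. Neutrophils had 0 UMIs in both libraries. T cells had next to none, with 5 and 7 UMIs in CD8 T cells where free macrophage RNA, scaled from the C1q transcripts in these cells, would give 2.77 and 3.81.

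Cxcl10 was near equal over the whole macrophage/monocyte class, with 3739 UMIs (180 CPM) against 3706 UMIs (168 CPM) and a log2 ratio of -0.10 (-0.17 to -0.04). The near equality covered opposite differences among its subclasses. C1q Ly6c2-positive macrophages had 261 and 152 CPM (log2 ratio -0.78, -0.94 to -0.63) and C1q Ly6c2-low macrophages 146 and 118 CPM (-0.30, -0.42 to -0.18). Ly6c2 monocytes had 214 and 302 CPM (0.50, 0.39 to 0.61) and Ace monocytes 90.7 and 133 CPM (0.55, 0.15 to 0.96). Other C1q-low monocytes had 374 and 355 UMIs (125 and 133 CPM, 0.09, -0.12 to 0.30). The first 4 subclass directions also held without the top cell of each library (-0.86, -0.33, 0.49 and 0.90 in the same order) and with every cell at equal depth (-0.85, -0.63, 0.33 and 0.51). At equal depth the interval of the Ace monocytes included 0 (-0.16 to 1.21). Other C1q-low monocytes measured 0.34 (0.08 to 0.59) without the top cells and 0.36 (-0.02 to 0.73) at equal depth. The Ly6c2 monocytes differed in level per positive cell rather than in positive cells, since 13.7% and 13.6% of them had a UMI after thinning. Over all macrophage/monocyte cells 12.7% and 10.4% did, and the top 203 and 219 cells held 94.1% and 94.6% of the UMIs.

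Among lymphocytes, Cxcl10 was low, and its difference in CD8 T cells rested on few transcripts. CD8 T cells had 3 UMIs in the library labelled wt and 52 in that labelled cko (4.55 and 52.9 CPM, log2 ratio 3.54, 1.91 to 5.87). Of the 52, 28 lay in a single cell with 3602 UMIs in all and 0 UMIs of the macrophage gate, and without the top cell of each library 2 and 24 UMIs gave a log2 ratio of 3.01. Free macrophage RNA would give 2.95 and 4.73 UMIs. CD8-negative T cells had 23 and 10 UMIs (-1.45, -2.69 to -0.32), and without the top cells an interval that included 0 (-1.23, -2.78 to 0.18). The highest dendritic value, 435 CPM in plasmacytoid DCs of the library labelled cko, was 50 UMIs of 1 cell, which also held the class's 71 Cxcl9 UMIs and had 23 C1q and 27 macrophage-gate UMIs.

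Cxcl10 was found more often in cells with Cxcl9 than in the rest. At 3000 UMIs per cell, 32.7% of the 260 Cxcl9-positive macrophage/monocyte cells of the library labelled wt also had Cxcl10, against 9.76% of the rest, and 25.4% of the 248 in that labelled cko, against 8.48%. Cells positive for each ligand differed in what else they expressed. Those with Cxcl10 were higher by at least 1.5-fold in all 10 interferon targets in both libraries, with a median log2 ratio, with over without, of 2.63 and 2.91, where 9.66% and 9.6% of all genes were higher by as much. Rsad2, an antiviral enzyme, measured 3.86 and 3.73 on that scale and Ifit1, which binds viral RNA, 3.82 and 3.77. In cells with Cxcl9, 10 and 9 of the same 10 genes were higher past 1.5-fold, against 10% and 9.09% of all genes, but the median was 1.23 and 0.96. The guanylate-binding proteins led there, with Gbp2 at 1.85 and 1.95 and Gbp4 at 1.65 and 2.47, while Rsad2 measured 1.27 and 0.28. Socs1, the feedback inhibitor of interferon receptors, was higher with either ligand, at 2.98 and 2.77 with Cxcl10 and 2.14 and 1.64 with Cxcl9, and Ifngr1, a chain of the interferon-gamma receptor, was lower, at -0.80 and -0.75 with Cxcl10 and -0.99 and -0.62 with Cxcl9. Positive cells were deeper before thinning (median 10523.5 against 8483 UMIs for Cxcl9 and 9194 against 8535 for Cxcl10 in the library labelled wt), and all these values come from cells at equal depth.

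**Figure D3:**
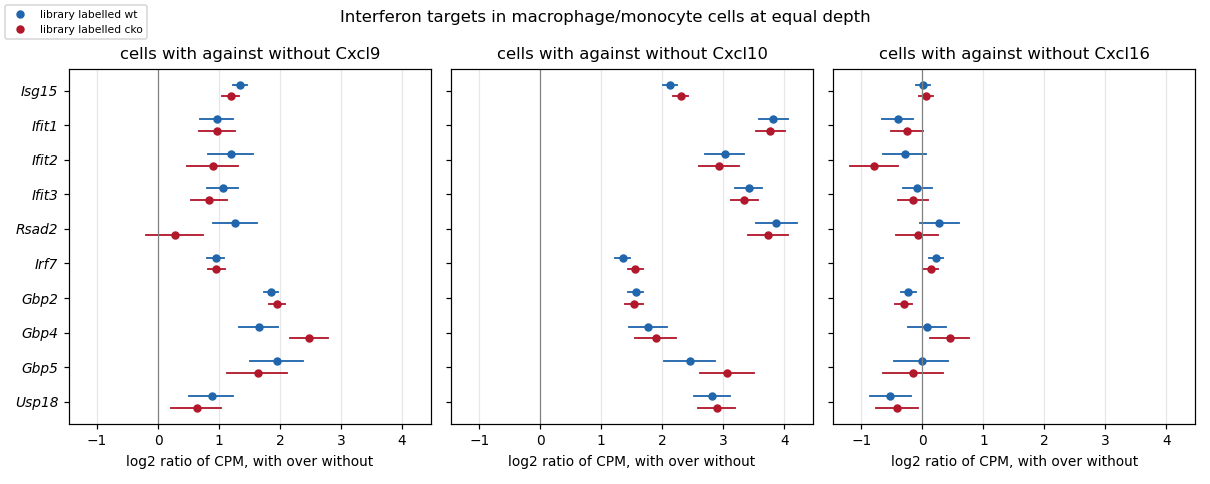
Each point is the log2 ratio of CPM of an interferon target in macrophage/monocyte cells with at least 1 UMI of the ligand over those without (horizontal axis), each cell thinned to 3000 UMIs, with 95% intervals for counting error. All 10 targets are higher in cells with Cxcl10 in both libraries, the medians are lower for Cxcl9 (1.23 and 0.96) and lie near 0 for Cxcl16 (-0.05 and -0.15).

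Other members were also compared in these cells. Ccl5 was higher in cells with Cxcl9 (2.78 and 3.46, with a UMI in 13.5% and 7.26% of these cells against 6.09% and 4.62% of the rest), and without the cell with most Ccl5 in each library the values were 2.57 and 2.24. For cells with Cxcl10 the Ccl5 values of 1.78 and 2.50 became 1.45 (1.12 to 1.76) and -0.14 (-0.80 to 0.45) without that cell, so in the library labelled cko the difference rested on 1 cell. Ccl4 was higher in cells with Cxcl10 (1.37 and 2.16, and 1.46 and 1.80 without the top cells). None of 5 genes of MHC class II presentation was past 1.5-fold in cells with Cxcl10 (median 0.05 and -0.13).

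Cxcl16 (ENSMUSG00000018920, chr11:70453983-70459984, minus strand) differed least of the ligands in macrophage/monocyte cells. It gave 4978 UMIs (240 CPM) and 5257 UMIs (238 CPM), a log2 ratio of -0.01 (-0.07 to 0.04), and 33.3% and 32.8% of thinned cells had a UMI. It was also more evenly spread than the Cxcr3 ligands, since the top 203 and 219 cells held 52.7% and 53.1% of its UMIs. C1q Ly6c2-low macrophages had 386 and 356 CPM and C1q Ly6c2-positive macrophages 292 and 282 CPM, against 78.3 and 66.6 CPM in Ly6c2 monocytes and 41.5 and 48.2 CPM in Ace monocytes. Other C1q-low monocytes had 463 and 384 UMIs (154 and 144 CPM). The order of the 4 named classes was the same in both libraries, although the counting intervals of the last pair overlapped in the library labelled cko.

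Mature DCs reached the same range as the C1q macrophages, with 66 and 200 Cxcl16 UMIs (415 and 270 CPM, log2 ratio -0.62, -1.03 to -0.20), but with each cell at equal depth the ratio was 0.30, so no direction is read. XCR1 DCs had 84 and 105 UMIs (202 and 238 CPM, 0.24, -0.19 to 0.67). In the library labelled cko 20 of the 105 lay in a single cell with 289 C1q and 28 macrophage-gate UMIs. Free macrophage RNA enters these counts, as it did for Cxcl9 in this class, so the level cannot be credited to XCR1 DCs alone. T and NK cells together had 18 and 12 UMIs where free macrophage RNA would give 9.11 and 12.6. In cells with Cxcl16, 0 of the 10 interferon targets was higher past 1.5-fold in either library. Of the macrophage state genes, 4 of 10 were higher past 1.5-fold and 5 lower for the library labelled wt (median -0.19) and 4 of 9 and 2 in that labelled cko (median 0.57), where 18.9% and 18.6% of all genes were past 1.5-fold in either direction. C1qa, a complement chain of mature macrophages, was higher at 1.79 and 1.58, the lipid carrier Apoe at 1.24 and 1.26, and the mannose receptor Mrc1 at 1.45 and 1.33. Of 5 MHC class II genes, 4 and 5 were higher past 1.5-fold, while Ly6c2 measured -0.92 and -1.11 and Vcan, a monocyte proteoglycan, -1.43 and -1.56. The class difference above enters these values: of the 678 and 720 macrophage/monocyte cells with a Cxcl16 UMI at this depth, 324 and 410 were C1q Ly6c2-low and 144 and 120 C1q Ly6c2-positive macrophages. Positive cells were also deeper before thinning (median 10541.5 against 8018 UMIs in the library labelled wt).

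Ccl3 and Ccl4 are neighbours on chromosome 11, 13228 bases apart and on opposite strands (Ccl3, ENSMUSG00000000982, chr11:83647844-83649355, and Ccl4, ENSMUSG00000018930, chr11:83662584-83664683), and Ccl5 (ENSMUSG00000035042, chr11:83525778-83530518) lies 117325 bases from Ccl3. Ccl3 differed in macrophage/monocyte cells, with 1119 UMIs (53.9 CPM) in the library labelled wt and 1810 UMIs (81.9 CPM) in that labelled cko, a log2 ratio of 0.60 (0.49 to 0.71). More cells were positive as well: 9.84% and 14.5% of thinned cells had a UMI (8.58 to 11.2% and 13.1 to 16.1%), or 20.2% and 27.3% before thinning. The difference was past 1.5-fold, with intervals above 0, in 3 of the 5 subclasses. The log2 ratio was 0.66 (0.48 to 0.84) in C1q Ly6c2-low macrophages, 0.91 (0.63 to 1.196) in C1q Ly6c2-positive macrophages and 0.63 (0.41 to 0.86) in Ly6c2 monocytes. It was 0.37 (-0.11 to 0.85) in Ace monocytes, an interval that includes 0, and 0.28 (0.02 to 0.54) in the other C1q-low monocytes, where it was 0.22 (-0.19 to 0.64) at equal depth, so no direction is read there.

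Ccl4 differed less in the same cells, with 1974 UMIs (95.2 CPM) against 2614 UMIs (118 CPM), a log2 ratio of 0.31 (0.23 to 0.40), and a UMI in 11.7% and 13.6% of thinned cells (10.3 to 13.2% and 12.2 to 15.1%, which overlap). Its subclasses differed in extent. C1q Ly6c2-low macrophages were level at 125 and 126 CPM, Ly6c2 monocytes had 413 and 424 UMIs (77.5 and 84.3 CPM, 0.12, -0.08 to 0.32), C1q Ly6c2-positive macrophages had 76.1 and 129 CPM (0.76, 0.55 to 0.98), and other C1q-low monocytes 68.0 and 158 CPM (1.22, 0.97 to 1.47, and 0.91 without the top cells). Ace monocytes were lower, at 128 and 75.4 CPM (-0.76), and -0.09 without the top cells.

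Ccl3 and Ccl4 shared cells. Of the 200 and 319 macrophage/monocyte cells with Ccl3 at 3000 UMIs, 52 and 83 (26.0% in both libraries) also had Ccl4, against 10.1% and 11.5% of the rest. Most cells with Ccl3 had no Ccl4 UMI at this depth. The Ccl4 level was higher in cells with Ccl3 by 2.72 and 1.77 on the log2 scale (2.58 and 1.95 without the top cells). Egr1, a transcription factor of the immediate-early response, was higher in them by 1.88 and 0.85, and Fosb, another, by 1.11 and 1.32. Of 10 immediate-early and heat-shock genes, 5 and 3 were higher past 1.5-fold (median 0.66 and 0.48), against 8.47% and 6.37% of all genes. Of 9 genes of NF-kB and TNF signalling 5 and 1 were (median 0.69 and 0.16). Between the libraries, none of the 10 immediate-early and heat-shock genes was past 1.5-fold over the whole macrophage/monocyte class, where their median log2 ratio was 0.44, with Fos at 0.42, Jun at 0.45 and Hspa1a at 0.54. The immediate-early and heat-shock genes are known to respond to handling of cells as well as to signals in tissue, and their part in the Ccl3 difference was not tested.

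Summed over lymphocytes, both ligands were higher in the library labelled cko. T and NK cells together had 196 and 543 Ccl3 UMIs (137 and 292 CPM, log2 ratio 1.09, 0.85 to 1.33) and 417 and 1557 Ccl4 UMIs (292 and 837 CPM, 1.52, 1.36 to 1.68). Free macrophage RNA would give at most 6.28 Ccl4 UMIs. The shares of positive cells differed less: 15.1% and 18.1% of thinned cells had Ccl3 (10.3 to 21.1% and 13.3 to 23.8%) and 20% and 21.7% had Ccl4 (14.5 to 26.5% and 16.5 to 27.6%). CD8 T cells had 153 and 385 Ccl3 UMIs (232 and 392 CPM, 0.76, 0.48 to 1.04) and 265 and 851 Ccl4 UMIs (402 and 866 CPM, 1.11, 0.91 to 1.31). A single CD8 T cell of the library labelled cko held 339 of those 851 UMIs, and the log2 ratio was 0.93 without the top cells.

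NK cells differed as well, from 16 to 128 Ccl3 UMIs (39.1 and 285 CPM, 2.86, 2.11 to 3.71) and from 78 to 493 Ccl4 UMIs (191 and 1098 CPM, 2.52, 2.18 to 2.89). Only 10 and 8 NK cells had any Ccl4, and 1 cell of 16038 UMIs held 82 of the 128 Ccl3 and 248 of the 493 Ccl4 UMIs. At equal depth the log2 ratios were 1.32 and 1.52. CD8-negative T cells had 74 and 213 Ccl4 UMIs (1.27, 0.89 to 1.68) and 27 and 30 Ccl3 UMIs (-0.10, -0.90 to 0.71). In T and NK cells 3 of 9 immediate-early and heat-shock genes were past 1.5-fold in the same direction (Junb 0.95, Dusp1 0.73 and Hspa1a 1.15). Of all genes there, 14.9% were past it in either direction. The part of the immediate-early and heat-shock genes in the Ccl3 and Ccl4 differences was not tested.

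Neutrophils, few as they were, had the highest Ccl4 of any class, 115 UMIs in 8 of 22 cells and 283 UMIs in 23 of 55 cells (1232 and 1255 CPM, log2 ratio 0.03, -0.29 to 0.35), with an interval that overlapped that of NK cells in the library labelled cko. The equality rested on 1 cell with 80 UMIs in the library labelled wt, and the ratio was 1.30 without the top cells. Ccl3 was lower in neutrophils of the library labelled cko, with 43 and 55 UMIs (461 and 244 CPM, -0.92, -1.52 to -0.31), and -0.18 without the top cells. Mixed cells held 19.5% of the Ccl3 and 13.5% of the Ccl4 UMIs of the library labelled wt but 2.15% and 2.32% of those labelled cko, and a single mixed cell of the library labelled wt had 159 Ccl3 and 312 Ccl4 UMIs.

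**Figure D4:**
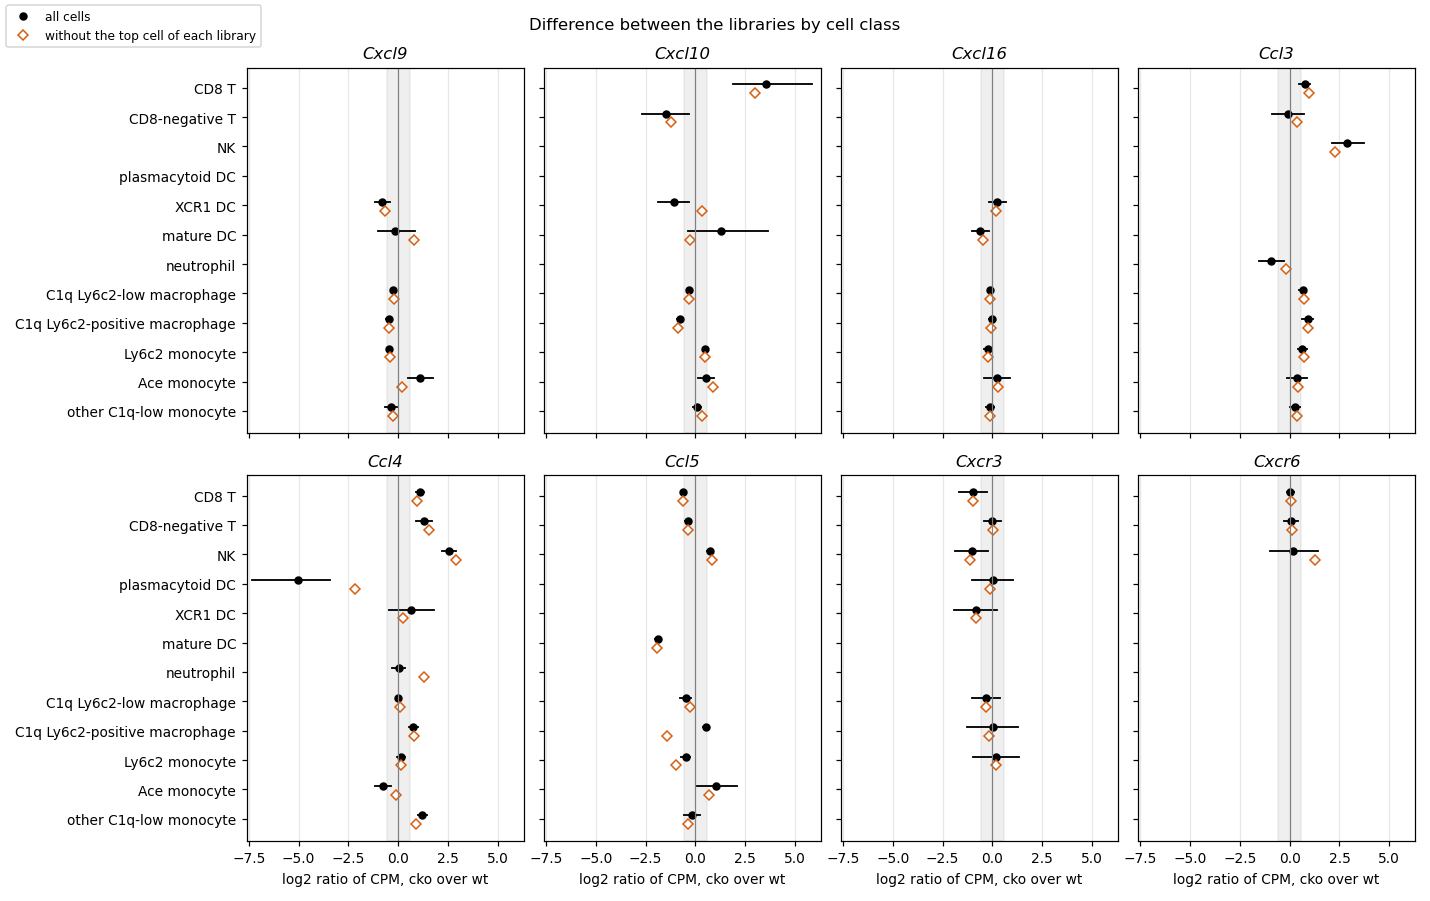
Black points give the log2 ratio of CPM between the libraries (horizontal axis, cko over wt) for each class with at least 20 UMIs, with 95% intervals for counting error, and orange diamonds the ratio without the cell that holds most UMIs of the gene in each library. The grey band marks differences under 1.5-fold. Ccl3 and Ccl4 lie to the right in CD8 T and NK cells, and the diamonds of Ccl5 in C1q Ly6c2-positive macrophages (-1.43) and Ccl4 in neutrophils (1.30) stand far from their black points.

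Ccl5, a ligand that effector T cells, NK cells and activated DCs are known to store and secrete, was lower in both T cell classes and higher in NK cells of the library labelled cko. Over T and NK cells together it had 3102 UMIs (2170 CPM) and 3441 UMIs (1850 CPM), a log2 ratio of -0.23 (-0.30 to -0.16), which was -0.053 (-0.12 to 0.02) with every gate raised by 1 UMI. CD8 T cells had 2534 and 1631 CPM (-0.64, -0.74 to -0.54), CD8-negative T cells 2326 and 1776 CPM (-0.39, -0.53 to -0.25) and NK cells 1445 and 2398 CPM (0.73, 0.58 to 0.88). These directions held at equal depth (-1.13, -0.24 and 0.70) and without the top cells (-0.61, -0.37 and 0.82). The share of thinned cells with a UMI was 67.1% and 60% of CD8 T, 59.7% and 52.9% of CD8-negative T and 40% and 47.2% of NK cells. The CD8 T cells of the library labelled cko were the deeper ones, with medians of 6473 and 7997 UMIs. A lower sum can come from fewer positive cells or from less Ccl5 RNA in each, and the sums alone cannot tell these apart. At equal depth CD8 T cells had 4237 and 1940 CPM, a larger difference than that in their share of positive cells, so the level per positive cell was lower as well. CD8-negative T cells had 3005 and 2549 CPM at that depth, a difference nearer to that in their share.

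Mature DCs had the highest Ccl5 of any class in the library labelled wt, 1086 UMIs in 12 of 15 cells (6831 CPM), against 1367 UMIs in 26 of 39 cells (1845 CPM) in that labelled cko. The log2 ratio was -1.89 (-2.00 to -1.77), and -0.94 at equal depth, from 15 and 39 cells. XCR1 DCs had 5 and 4 UMIs and neutrophils 0 and 1. In macrophage/monocyte cells Ccl5 gave 1387 and 1376 UMIs, where free lymphocyte RNA, scaled from Cd3e and Nkg7, would give 144 and 134. The near equality there (log2 ratio -0.10, -0.21 to 0.01) rested on 1 C1q Ly6c2-positive cell of the library labelled cko with 596 UMIs, 43.3% of the class. That cell had 3 UMIs of the macrophage gate, the fewest the gate admits, and 36 C1q UMIs. Without the top cell of each library the log2 ratio was -0.82, and 7.03% and 4.92% of thinned cells had a UMI.

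**Figure D5:**
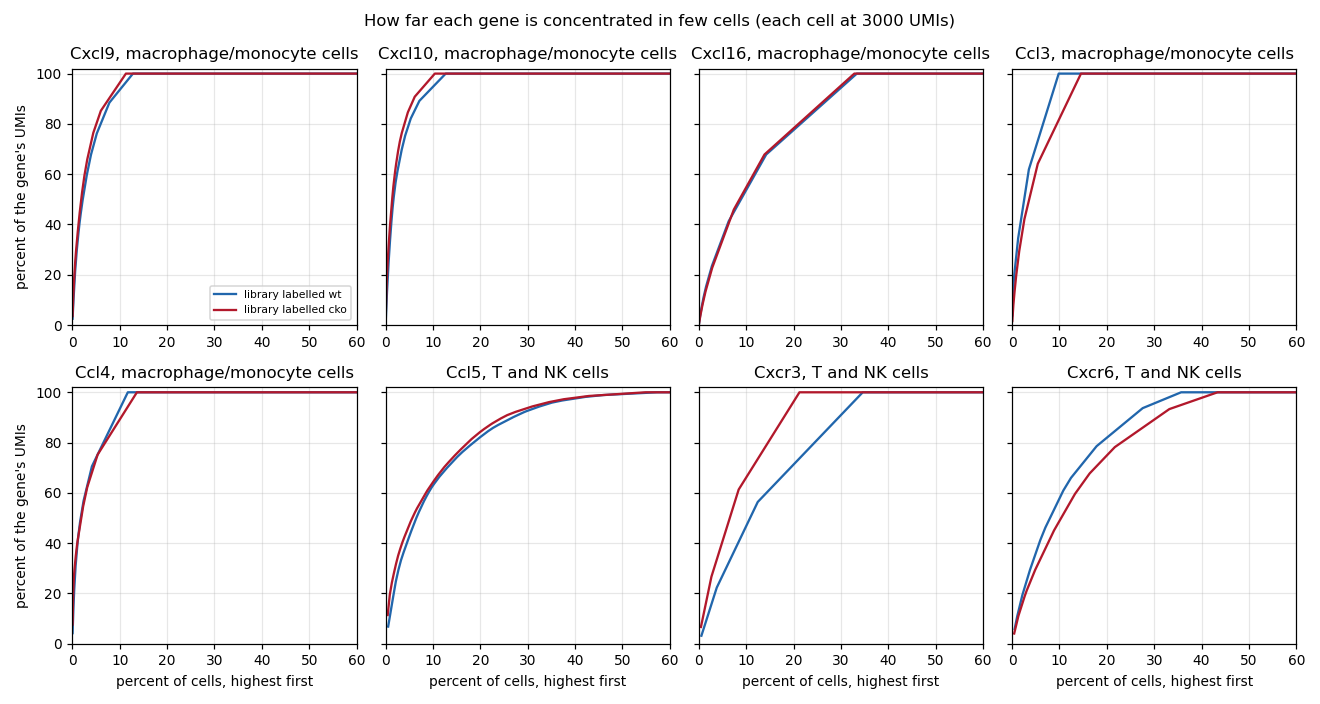
Cells of the class that holds most of each gene's UMIs are ordered from highest to lowest (horizontal axis, percent of cells), and the line gives the percent of the gene's UMIs they hold together (vertical axis), with each cell at 3000 UMIs. Cxcl9 and Cxcl10 reach 100% within 12.8% of cells in the library labelled wt, and Cxcl16 within 33.3%.

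Cxcr3 (ENSMUSG00000050232, chrX:101731535-101734269, minus strand), the receptor of Cxcl9 and Cxcl10, was highest in CD8-negative T cells among classes of at least 10 cells, with intervals that overlapped those of plasmacytoid DCs, and was level there between the libraries. Those cells gave 79 and 94 UMIs (219 CPM in both, log2 ratio 0.00, -0.45 to 0.45). CD8 T cells had 43 and 33 UMIs (65.2 and 33.6 CPM, -0.96, -1.66 to -0.27) and NK cells 39 and 21 UMIs (95.4 and 46.8 CPM, -1.03, -1.87 to -0.23). Thinned cells with a UMI were 51.6% and 39.7% of CD8-negative T, 23.3% and 14.3% of CD8 T and 30% and 11.3% of NK cells. Both CD8 T and NK cells thus had less of this receptor in the library labelled cko, on small counts. Over T and NK cells together the log2 ratio was -0.50 (-0.83 to -0.17), from 161 and 148 UMIs, and -0.25 (-0.54 to 0.05) with the mixed cells added.

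Outside the lymphocytes, Cxcr3 was found in plasmacytoid DCs, which are known to carry it, with 16 UMIs in 8 of 16 cells and 20 UMIs in 7 of 19 cells (174 CPM in both libraries). XCR1 DCs had 22 and 13 UMIs (52.9 and 29.5 CPM, -0.84, -1.95 to 0.21) and mature DCs 0. The 4 and 2 B cells held 17 and 9 UMIs. Macrophage/monocyte cells held 72 and 73 Cxcr3 UMIs, or 21.3% and 22.5% of all, where free lymphocyte RNA would give 7.47 and 5.78, and 0.93% and 0.96% of thinned cells had one. Because these cells are so many, 66 and 65 of the 189 and 179 cells with a Cxcr3 UMI were macrophage/monocyte cells.

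Cxcr6 (ENSMUSG00000048521, chr9:123806475-123811760, plus strand), the receptor of Cxcl16, was a T cell transcript in both libraries. CD8 T cells had 435 and 667 UMIs (659 and 679 CPM, log2 ratio 0.04, -0.13 to 0.22) and CD8-negative T cells 121 and 152 (335 and 354 CPM, 0.08, -0.28 to 0.44). NK cells had 12 and 15 UMIs (29.3 and 33.4 CPM). Plasmacytoid DCs, mature DCs and neutrophils had 0, which by the limit of 3 counts allows up to 18.8% and 15.8% of plasmacytoid DCs to hold a UMI. In macrophage/monocyte cells 20 and 17 UMIs were found where free lymphocyte RNA would give 26.4 and 32.6, so the level there was that of background.

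The share of thinned cells with Cxcr6 was 63.0% and 67.6% in CD8 T cells (50.9 to 74.0% and 57.8 to 76.4%) and 27.4% and 33.8% in CD8-negative T cells. Over T and NK cells together the log2 ratio of CPM was 0.17 (0.02 to 0.33), but the interval included 0 under TMM scaling (0.15, -0.0093 to 0.30), under DESeq2 size factors (0.15), without the 2% deepest cells (0.06) and without the shared barcodes (0.14). CD8 T cells were 73 of 185 and 105 of 226 of those cells. CD8 T cells were 56 of the 119 cells of any class with a Cxcr6 UMI in the library labelled wt and 90 of 158 in that labelled cko. In CD8 T cells with Cxcr6, 4 of 5 T cell state genes were higher past 1.5-fold and 1 lower in the library labelled wt, and 2 of 6 were higher in that labelled cko, against 30.4% and 27% of all genes past it in either direction. The inhibitory receptors measured 1.60 and 0.58 (Pdcd1, with over without), 1.33 and 0.77 (Lag3) and 2.73 and 0.75 (Havcr2, the latter with an interval of -0.21 to 1.81), and Gzmb, a cytotoxic protease, 0.82 and 0.24. The values of Pdcd1 and Gzmb in the library labelled cko were under 1.5-fold. Ccl5 measured 0.84 and 0.41, and 0.58 and 1.03 without the cell with most Ccl5. Ccl4 measured 1.43 and 1.16, but 0.85 and -0.07 (-0.55 to 0.43) without its top cell in each library. In 46 and 71 positive against 27 and 34 negative cells, Cxcr3 was lower, at -1.31 and -2.28.

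In CD8 T cells with Cxcr3, Lag3 measured -1.68 and -1.99 and Gzmb -2.27 and -0.90, and of 5 and 6 T cell state genes 1 was higher and 3 lower in each library, against 37.9% and 43.1% of all genes in either direction. Only 7 and 4 CD8 T cells had both receptors at this depth, of 17 and 15 with Cxcr3 and 46 and 71 with Cxcr6. The product of the shares would give 10.7 and 10.1 cells. Among CD8-negative T cells, Pdcd1 was higher with Cxcr6 (3.40 and 1.79) and with Cxcr3 (1.53 and 1.00), and Cxcr3 differed with Cxcr6 by -0.01 and 0.33. The T cell state genes did not share a direction there between the libraries: with Cxcr6, 2 of 7 were higher past 1.5-fold and 4 lower for the library labelled wt (median -0.95), and 5 of 10 higher and 1 lower for that labelled cko (median 0.73), against 35% and 31.7% of all genes in either direction. Gzmb measured -0.95 and 0.58. Ccl5 was lower in CD8-negative T cells with Cxcr6 (-0.96 in both libraries), opposite in direction to the CD8 T cells, and -0.75 and -0.72 without the top cells.

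Signals upstream of the Cxcr3 ligands were examined in a list of 9 interferon-gamma pathway genes. In macrophage/monocyte cells the median log2 ratio was -0.11, and only Ifng itself was past 1.5-fold, at background, with 28 and 16 UMIs where free lymphocyte RNA would give 25.3 and 16.1. Irf1, an early target of the pathway, measured -0.01, and the receptor chain Ifngr1 0.17. Of 10 interferon targets none was past 1.5-fold in these cells (median -0.18), with Gbp2 at 413 and 280 CPM (-0.56) and Isg15 at -0.27. In T and NK cells Ifng, the cytokine itself, had 545 and 412 UMIs (381 and 221 CPM), but 343 of the 545 lay in 1 CD8-negative T cell. The next highest cell had 57, and without the top cell 202 and 352 UMIs remained. An Ifng UMI was found in 15.1% and 27.0% of thinned T and NK cells, 27.4% and 40.95% of CD8 T cells, so the share of positive cells was higher in the library labelled cko while the summed level was lower.

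Other pathway genes gave the following counts, to be read against the 6.99% of all genes past 1.5-fold in macrophage/monocyte cells and the 14.9% in T and NK cells. Of 9 genes of NF-kB and TNF signalling, 0 was past 1.5-fold in macrophage/monocyte cells and 2 in T and NK cells, both higher in the library labelled cko (the inhibitor Nfkbia at 0.62 and Tnf with 10 and 24 UMIs and an interval that included 0). Among other chemokines that act on lymphocytes, 2 of the 5 with enough UMIs and a ratio were higher and 1 lower in macrophage/monocyte cells. The higher ones were Ccl22 with 6 and 23 UMIs and Xcl1 with 16 and 56, where free lymphocyte RNA would give 29.6 and 70.5 Xcl1 UMIs, so that level was background. Ccl17, a ligand known from DCs, had 0 and 73 UMIs and so no ratio, and 51 of the 73 lay in 1 of the 4 cells that held any. Ccl8, a monocyte and T cell attractant, was the lower one at 328 and 177 CPM (-0.89, -0.94 to -0.83) with 782 and 294 CPM in C1q Ly6c2-low and 199 and 245 CPM in C1q Ly6c2-positive macrophages. In the latter 1 cell of the library labelled cko held 422 of the 833 UMIs, and without the top cells the levels were 140 and 122 CPM (-0.20, -0.38 to -0.01). Xcl1, which draws XCR1 DCs, was among the 2 higher in T and NK cells, at 447 and 970 CPM (1.12, 0.99 to 1.25), and 1 NK cell held 474 of its 1805 UMIs. Of 10 other chemokine receptors with enough UMIs in macrophage/monocyte cells 2 were higher and 1 lower, and the pair at the highest CPM differed little (Ccr2 0.04 and Ccr1 0.08). Of the atypical receptors and processing enzymes, 0 of 6 passed there, with the Cxcl16 sheddases Adam10 at -0.04 and Adam17 at 0.03 and the proteoglycan Sdc4 at -0.13, while 1 of 5, the decoy-like receptor Ccrl2 (0.84), passed in T and NK cells.

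In T and NK cells, where 14.9% of all genes passed 1.5-fold in either direction, 1 of 5 other receptors did. It was the fractalkine receptor Cx3cr1 at 18.2 and 38.2 CPM (1.07), beside Ccr2 at -0.36. There, 1 of the 9 interferon-gamma pathway genes was higher (Jak2) and 2 lower (Ifng and Ifngr2), but the intervals of Jak2 and Ifngr2 included 0 and Ifng was lower only with the cell of 343 UMIs counted. Beside them stood the receptor chain Ifngr1 at -0.02 and Irf8 at 0.12. Of 10 interferon targets 1 was higher (Rsad2, 8 and 25 UMIs) and 2 lower (Gbp5, 23 and 14 UMIs, and Ifit2, 14 and 12 UMIs with an interval that included 0), with Isg15 at -0.01. The lists added later gave few calls. Of 12 T cell state genes 3 were higher in T and NK cells (Foxp3 1.10, Rora 0.59 and Mki67 0.77), against the same 14.9% of all genes. Gzmb measured -0.31 there, Lag3 0.29 and Pdcd1 0.48. In macrophage/monocyte cells 1 of 10 T cell state genes was higher and 2 lower, against 6.99% of all genes in either direction. Of the lower ones Gzmb was at background, with 222 and 153 UMIs where free lymphocyte RNA would give 233 and 207. No MHC class II gene passed in either class (5 and 4 genes). Of 10 macrophage state genes Apoe alone passed in macrophage/monocyte cells, at 1578 and 3436 CPM (1.12), and in T and NK cells Apoe was higher and Ly6c2 lower of 6. The 60 and 198 Apoe UMIs there were at background, since free macrophage RNA would give 59.9 and 182.

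Genes whose level followed each member most closely over the 24 sums of class and library with at least 10 cells, out of 7025 genes, were listed by Pearson r of log2(CPM + 1). The sums share libraries and differ in depth, so r is a description. Cxcl10 was followed by Atp8a1 and Fcgr1 (0.86 each) and the interferon-inducible Ifi204 (0.85), Fcgr1 being a gate gene. Cxcl9 was followed by Nln (0.92), Cnn3 (0.91) and Hsd17b4 (0.90), and Cxcl16 by Parvb and Snx24 (0.92 each) and Oat (0.88). Ccl3 was followed by Egr1 (0.89), Aldoa (0.86) and Pgk1 (0.85), the last pair enzymes of glycolysis, and Ccl4 by Rac2 (0.85), Max (0.84) and Rab27a (0.83). For Ccl5 they were 1700020I14Rik (0.90), Serpinb9b and Fzr1 (0.89 each), for Cxcr3 Leprotl1 (0.91), Tbc1d10c (0.90) and Sept1 (0.88), and for Cxcr6 the T cell kinase Zap70 (0.96), Sh2d1a and Klrc2 (0.94 each).

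The microRNA encoded by the floxed gene can pair with transcripts through its seed, bases 2 to 8, shown in capitals (mmu-miR-21a-5p, RefSeq, GRCm38.p6, chr11:86584120-86584141, minus strand).
mmu-miR-21a-5p: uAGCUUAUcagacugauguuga
The complement of this seed, ATAAGCT, was looked for in the longest annotated 3′ untranslated region of each member, and 3 of the 8 held it once. They are shown with 8 bases on either side and the match in capitals.
Cxcl9: ctagaaacATAAGCTtacatgga
Ccl3: catctcctATAAGCTgtttgctg
Cxcr6: cagaataaATAAGCTgaatttca
The matches start at base 1453 of 2452 in Cxcl9, base 105 of 409 in Ccl3 and base 563 of 769 in Cxcr6, and over all 21131 genes with such a region 7.50% held at least 1. The macrophage/monocyte log2 ratios of these genes were -0.33 for Cxcl9 and 0.60 for Ccl3, opposite in direction, and Cxcr6 was at background there. A match is a run of letters and not a measured site.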

How the data were processed

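The deposited files, made by the authors, hold raw UMI counts per gene and cell for barcodes already called as cells. The submitters' processing notes name Cell Ranger, Seurat and genome build mm10 without versions. Deposited cells numbered 2449 and 2718, with 24492486 and 27163485 UMIs, and the shallowest had 3184 and 3187 UMIs. Doublets were not called. Mixed cells were set aside, and the 2% deepest cells were left out in an alternative.

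Cells under 200 detected genes or over 10% mitochondrial UMIs were dropped. Classes were gated on raw UMIs: T cells by Cd3d, Cd3e and Cd3g (sum at least 2), CD8 by Cd8a and Cd8b1, NK by Ncr1, Klrb1c, Klre1 and Klra8 (at least 2), macrophage/monocyte cells by Csf1r, Adgre1, Fcgr1 and 1 further gene (sum at least 3), with DCs by Xcr1 and Clec9a, Ccr7 and Fscn1, Siglech or Cd209a, and neutrophils by S100a8 and S100a9 with Csf3r, Cxcr2 or Retnlg. C1q macrophages exceeded the 95th percentile of the C1q sum in T and NK cells of their library (4.8 and 4 UMIs), Ly6c2-positive cells had at least 2 UMIs and Ace monocytes at least 1. UMIs were summed per class and divided by all UMIs of the class (CPM). Log2 ratios carry exact conditional binomial 95% intervals, shares Clopper-Pearson intervals and CPM Poisson intervals. These cover counting error only. Cells were thinned to 3000 UMIs with a fixed seed, and no cell was shallower. The calculations were tested on simulated data.

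Every member was to be named in every class, and those with few UMIs in a class are shown in the plot of levels. From the lists of other genes the 3 at the highest CPM in each class were to be named. Other genes named in the text were picked after their values were seen. The members and lists were chosen with earlier results of these data known. The lists of T cell state, MHC class II and macrophage genes, and the split of cells by a ligand or receptor, also without its top cell, were added after the members' class levels were seen. Cxcl11 was not analysed here, and some genes of the gates and lists are not reported here. Scaling alternatives used edgeR 4.0.16 and DESeq2 1.42.0 (R 4.3.3), and the rest Python 3.11.15 with numpy 2.4.6, scipy 1.17.1, pandas 2.3.3 and matplotlib 3.10.9.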

Additional observations from a re-analysis of the deposited data

Results flagged for a closer look

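For 5 members the difference between the libraries went one way in 1 class and the opposite way in another. None of these differences between classes was tested, since each genotype has 1 library. The values are log2 ratios in the first class minus those in the second: 1.89 for Cxcl9 (Ace monocytes and XCR1 DCs), 4.99 for Cxcl10 (CD8 T and CD8-negative T cells), 3.78 for Ccl3 (NK cells and neutrophils), 7.54 for Ccl4 (NK cells and plasmacytoid DCs) and 2.92 for Ccl5 (Ace monocytes and mature DCs). Single cells carry a large part of 4 of them: 1 plasmacytoid DC of the library labelled wt held 71 of the 78 Ccl4 UMIs of its class, 1 Ace monocyte of that labelled cko held 48 of the 80 Cxcl9 UMIs, 1 NK cell held 82 of the 128 Ccl3 UMIs, and for Cxcl10 1 CD8 T cell of the library labelled cko held 28 of 52 UMIs and 1 CD8-negative T cell of that labelled wt 9 of 23. Ccl5 in Ace monocytes had 13 and 32 UMIs, and its interval included 0 without the top cells (0.67, -0.39 to 1.82) and at equal depth (0.86, -0.79 to 2.73).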

How the results depend on the processing

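No paired analysis was possible because each group has 1 library and no result comes from a test. Of 80 values of the 8 log2 ratios of the members (macrophage/monocyte cells for Cxcl9, Cxcl10, Cxcl16, Ccl3 and Ccl4, T and NK cells for Ccl5, Cxcr3 and Cxcr6), 68 stayed within the counting interval, 12 left it and 0 changed direction. Without the 2% deepest cells Cxcl9 was -0.43, Cxcl10 -0.19 and Ccl5 -0.34. The mean over cells gave -0.24 for Cxcl9. Adding mixed cells gave 0.43 for Ccl3 and 0.10 for Ccl4. Without the 10 top cells of each library, chosen after the data were seen, Ccl3 was 0.79, Ccl4 0.40, Ccl5 -0.15 and Cxcr6 0.42. Raising every gate gave -0.053 and thinning -0.33 for Ccl5. The count of 1 member past 1.5-fold in macrophage/monocyte cells became 0 at 2-fold and 0 under TMM, which shifts ratios there by -0.03, and the 4 in T and NK cells became 2 at 2-fold and 3 with at least 50 UMIs.

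Shares of UMIs in macrophage/monocyte cells were 93.2% for Cxcl9, 95.8% for Cxcl10 and 73.6% for Ccl3 of the library labelled wt without the deepest cells, and 91.6% for Cxcl10 and 91.8% for Cxcl16 of that labelled cko with raised gates. Shares of cells with a UMI followed depth. Unthinned and at 1000 UMIs, macrophage/monocyte cells of the library labelled wt gave 20.4% and 7.62% (Cxcl9), 19.3% and 7.48% (Cxcl10), 52.3% and 15.3% (Cxcl16), 20.2% and 4.67% (Ccl3) and 22.3% and 5.02% (Ccl4). In that labelled cko they gave 18.05% and 6.29%, 17.96% and 6.11%, 51.4% and 16.1%, 27.3% and 7.34%, and 26.8% and 6.20% in the same order. In T and NK cells Ccl5 gave 65.9% unthinned (wt), and 63.3% and 42.5% (cko), Cxcr3 44.3% and 15.1% (wt) and 30.1% and 10.2% (cko), and Cxcr6 22.7% at 1000 UMIs (wt) and 54.4% and 27.4% (cko).

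By class, 70 ratios were recomputed without the top cell of each library and at equal depth, also chosen after the data were seen. Without the top cell 7 changed direction, 2 of which had an interval without 0 before: Cxcl10 in XCR1 DCs (0.34) and Ccl5 in C1q Ly6c2-positive macrophages (-1.43). The others included Cxcl10 (-0.28) and Cxcl9 (0.80) in mature DCs and Ccl3 in CD8-negative T cells (0.38). At equal depth 11 did, 3 of which had an interval without 0: Cxcl16 in mature DCs (0.30) and Cxcl9 in all DCs together (0.18) and other C1q-low monocytes (0.08). The others included Ccl3 in all DCs together (-1.19) and CD8-negative T cells (0.35) and Cxcl9 in mature DCs (1.71). Mouse-to-mouse spread is unknown here, and the groups follow the titles.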
